A study of Sus scrofa with 12 samples.

Results

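The genes described here move iron and heme across the intestinal epithelium or store iron within it. They were taken from the deposited expression table by gene name, with rows that share a name summed. Of 8 listed genes, 6 were matched among 17049 gene names, namely SLC40A1, CYBRD1, SLC46A1, HEPH, TFRC and FTH1. No row carries the name SLC11A2, the apical ferrous iron carrier, or FTL, the ferritin light chain, so that neither was analysed here. SLC40A1 is listed in the table by its Ensembl identifier, ENSSSCG00000027157, which the pig gene reference pairs with that symbol.

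RNA-seq was performed on jejunum of 12 piglets in 4 groups of 3 biological replicates. Sucking piglets were sampled at 21 days of age, the age of weaning, and weaned piglets at 28 days of age, 7 days later. Control piglets (the groups W_Con and PW_Con) were born to sows on a corn and soybean meal diet, and resveratrol piglets (W_Res and PW_Res) to sows given the same diet with 300 mg/kg resveratrol, a plant polyphenol, from 20 days after breeding until the end of lactation. The resveratrol was thus given to the mother, and no dose for the piglets themselves is stated. The public records describe Landrace semen and piglets that stayed in their pens after weaning, whereas the study's methods describe Yorkshire × Duroc male piglets that were moved, so that breed and housing are uncertain for all 4 groups.

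Dietary non-heme iron is reduced at the brush border of duodenal and upper jejunal enterocytes by the ferric reductase CYBRD1 (duodenal cytochrome b) and then enters the cell as ferrous iron. SLC46A1 is a proton-coupled carrier of folate that has also been described as a heme carrier. Iron leaves the cell at the basolateral side through SLC40A1 (ferroportin), the only known cellular iron exporter, and is oxidised there by the copper-containing ferroxidase HEPH (hephaestin) for loading onto transferrin. TFRC (transferrin receptor) takes up transferrin-bound iron from the blood side and is abundant in dividing and erythroid cells, and ferritin, built of FTH1 and FTL, stores iron in the cytosol. Sow's milk is poor in iron, and the hepatic hormone hepcidin causes loss of SLC40A1 protein, a step that mRNA levels do not measure.

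Values are FPKM, a fragment number divided by exon length and by the mapped fragments of the library, as the authors deposited them. FPKM is scaled by gene length but is not a read count, so that the depth behind a single gene is unknown. Between replicates of a group, Pearson's r across 12886 genes, which are not independent replicates, was 0.881 to 0.911 in W_Res and 0.921 to 0.961 in the other groups. Libraries differed in markers of position along the small intestine. FABP6, the ileal bile acid binding protein, ranged from 1.70 to 24110 FPKM over the 12 libraries, with low and high libraries in W_Con, W_Res and PW_Res and only high ones in PW_Con. The W_Res libraries also stood apart in 5 smooth muscle markers, whose summed FPKM was 1180, 2681 and 542 in their replicates 1, 2 and 3 against 132 to 499 in the other 9 libraries. The 3 liver markers used as a tissue check summed to at most 11.0 FPKM, and the villus enterocyte markers to at least 1239 FPKM. In bulk tissue, fewer cells of a type cannot be told apart from less RNA per cell.

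On this length-scaled measure, CYBRD1 was the most abundant of the matched genes, with a mean of 33.1 FPKM over the 12 libraries, followed by HEPH at 21.9, SLC46A1 at 8.40, SLC40A1 at 5.35 and TFRC at 2.43 FPKM. These 5 genes passed the minimum mean of 0.5 FPKM required for testing. FTH1 did not pass. It was listed at 0 FPKM in 11 libraries and at 0.0242 FPKM in replicate 3 of PW_Res, and nothing is read from these zeros. Another locus, ENSSSCG00000014540, carries the annotation ferric iron binding without a symbol in the table or the reference, and it was looked up after its values had been seen. Its mean was 2531 FPKM, the rank of 5 among 17049 gene names, and its values ran from 1850 to 3930 FPKM. The log2 fold change of this locus lay between -0.10 and 0.37 in the 4 comparisons of groups, and it did not meet the study's standard in any of them. ENSSSCG00000003639 and ENSSSCG00000016195 carry the same annotation. The former was at 2.19 to 2.75 FPKM in sucking and 0.911 to 2.11 FPKM in weaned control piglets. These groups did not overlap, as for 24.9% of all genes tested, and the log2 fold change of -0.57 did not meet the standard. The latter was at most 0.768 FPKM and, below the minimum mean, was not tested.

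**Figure D1:**
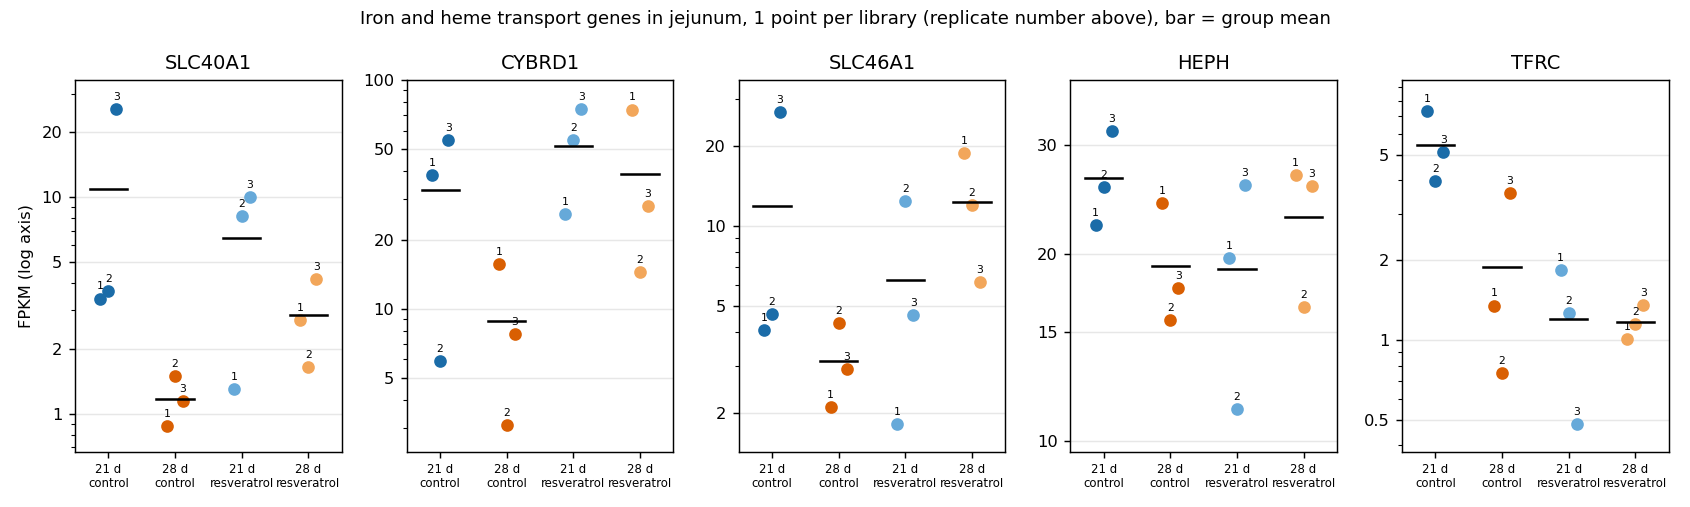
FPKM (log axes) of the 5 tested genes in each library, by group, with the replicate number above each point and the group mean as a bar. SLC40A1 in the 3 weaned control libraries (0.879 to 1.50 FPKM) and TFRC in the 3 sucking control libraries (3.98 to 7.29 FPKM) are set apart from the other age in control litters, whereas HEPH overlaps between all 4 groups.

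The weaning comparison in control litters asks how the jejunum of weaned piglets, all 28 days old, differs from that of sucking piglets, all 21 days old. Weaning, age and the change of feed cannot be told apart, here or in resveratrol litters. A weaning effect in this text means the change between these ages. All 5 tested genes had lower fitted means in weaned piglets, and 2 of them, SLC40A1 and TFRC, met the study's standard, an unadjusted P under 0.05 with a log2 fold change above 1 or below -1. At that standard, 3.1% of 12886 genes differed in either direction and 1.74% were lower. The fits were made with limma on log2(FPKM + 1), a scale that understates the change of genes with low values. The adjusted p of these 5 genes was 0.143 to 0.516, and no gene of the table passed an adjusted p of 0.05 in limma, although 1974 had an unadjusted P under 0.05. Limma gave 44 such genes at a minimum mean of 5 FPKM, 2 with the position score described below as a covariate and 1 to 3 without replicate 1, 2 or 3 of W_Con or replicate 2 of PW_Con, and a linear model of the Ballgown type gave 41. None of the 5 was among them.

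SLC40A1 was measured at 3.40, 3.68 and 25.6 FPKM in replicates 1, 2 and 3 of the sucking control piglets, and at 0.879, 1.50 and 1.14 FPKM in the weaned control piglets. Every weaned library was below every sucking library, and the sucking mean (10.9 ± 12.7 FPKM, SD, n = 3) rested largely on replicate 3, while the weaned mean was 1.17 ± 0.310 FPKM (SD, n = 3). The exporter fell by 1.92 on the log2 scale (standard error 0.69, limma adjusted p = 0.224). Without replicate 3 of W_Con the value was -1.07 (adjusted p = 0.510) and no longer met the standard, nor did the value of -1.51 (adjusted p = 0.350) with that score as a covariate. SLC40A1, SLC46A1 and the neighbouring loci ENSSSCG00000016040, ENSSSCG00000027221 and ENSSSCG00000026081 are on the list of differential genes that the study chose on these control libraries, so that this comparison is not independent evidence of their direction.

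The same libraries were high and low at loci beside SLC40A1. Its locus number in the assembly is followed directly by those of ENSSSCG00000016040 and ENSSSCG00000027221, which have no symbol in the table or the reference. ENSSSCG00000016040 is annotated with iron ion transmembrane transport, like SLC40A1. It had 7.04, 6.02 and 47.0 FPKM in sucking control piglets and 1.43, 2.28 and 1.48 FPKM in weaned control piglets, the same library being highest. Its FPKM was 1.29 to 2.07 times that of SLC40A1 over the 12 libraries, and that of ENSSSCG00000027221 was 0.711 to 0.949 times. Over the 12 libraries, Pearson's r of log2(FPKM + 1) with SLC40A1 was 0.995 for ENSSSCG00000016040 and 0.996 for ENSSSCG00000027221. Whether these are 3 pieces of a single gene was not tested, and overlapping models could share reads. With the 3 loci summed, an alternative chosen after seeing the data, the sucking control libraries had 13.7, 12.8 and 92.6 FPKM and the weaned ones 2.94, 5.04 and 3.53 FPKM. The sum fell by 2.49 on the log2 scale (limma adjusted p = 0.177).

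**Figure D2:**
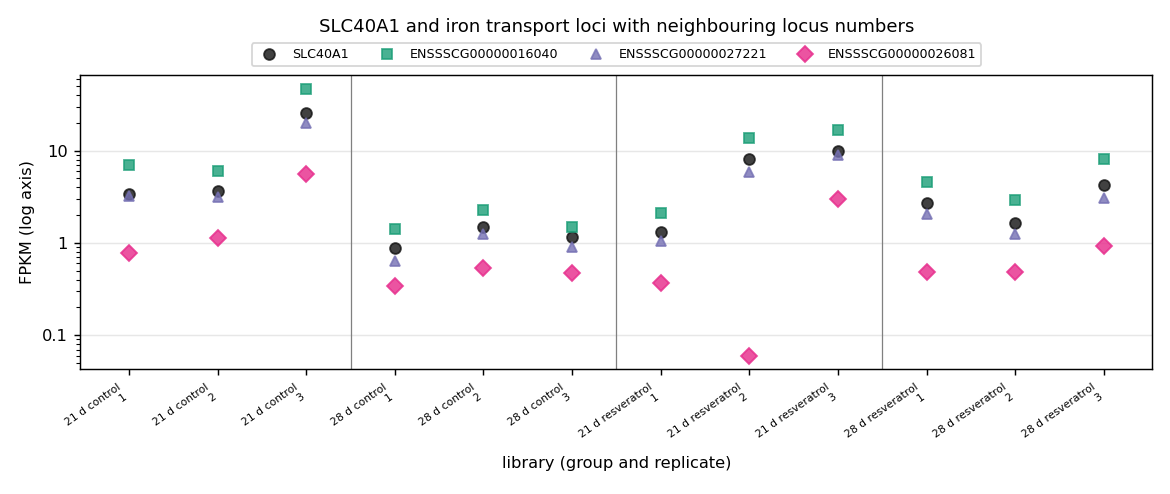
FPKM (log axis) of SLC40A1 and of 3 further loci with neighbouring locus numbers in each of the 12 libraries, separated by group. ENSSSCG00000016040 and ENSSSCG00000027221 follow SLC40A1 from library to library, with the highest point of each in replicate 3 of the sucking control piglets, whereas ENSSSCG00000026081 departs from them in replicate 2 of the sucking resveratrol piglets at 0.0600 FPKM.

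TFRC was at 7.29, 3.98 and 5.10 FPKM in the sucking control piglets and at 1.35, 0.749 and 3.58 FPKM in the weaned control piglets. The groups did not overlap, although replicate 3 of PW_Con lay close to the lowest sucking library. The receptor fell by 1.25 on the log2 scale (standard error 0.35, limma adjusted p = 0.143). The unadjusted P remained under 0.05 without replicate 2 of PW_Con, but the value of -0.95 (adjusted p = 0.348) was then short of the fold change required. An exact permutation test of 3 against 3 libraries cannot go below a p of 0.1, which both SLC40A1 and TFRC reached. Groups that do not overlap were found for these 2 of 5 genes and for 24.9% of all genes tested.

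Since TFRC is a marker of erythroid and dividing cells, lists of such markers are given beside it. The summed FPKM of 6 erythroid genes, of which the globin gene HBB was the main part, was 74.98, 54.2 and 31.4 in sucking control piglets and 1.01, 10.7 and 49.5 in weaned control piglets. The ranges of this sum overlapped between the ages, with replicate 3 of PW_Con above replicate 3 of W_Con, whereas those of TFRC did not. Of the 2 erythroid genes that could be tested, both were lower and 1, HBB, met the standard. Of the other erythroid genes, SLC4A1 and KLF1 were at or near 0 in every library. The 8 genes of crypt and cell division summed to 470 to 951 FPKM in sucking and 373 to 1395 FPKM in weaned control piglets, with overlapping ranges, and none of the 7 tested met the standard. The 10 villus enterocyte genes summed to 3328 to 4423 FPKM in sucking and 2849 to 3745 FPKM in weaned control piglets, also overlapping, with 3 of the 10 lower at the standard and none higher. The part of these cells in the TFRC and SLC40A1 results was not tested.

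The other 3 genes had overlapping groups. CYBRD1, the sum of 2 loci of which the second had at most 2.07 FPKM, was at 38.3, 5.90 and 54.7 FPKM in sucking control piglets and at 15.6, 3.09 and 7.73 FPKM in weaned control piglets. Replicate 2 of the sucking group lay within the weaned range, and the log2 fold change of -1.55 (95% interval -3.33 to 0.22, limma adjusted p = 0.398) did not meet the standard. It did so without replicate 2 of W_Con (-2.48) or replicate 1 of PW_Con (-2.05). Over all omissions of a single library, the value for CYBRD1 ran from -2.48 to -0.97. SLC46A1 was at 4.07, 4.69 and 26.8 FPKM in sucking and 2.11, 4.34 and 2.92 FPKM in weaned control piglets, and as with SLC40A1 a single library, replicate 3 of W_Con, stood far above the others. Its log2 fold change was -1.21 (95% interval -2.70 to 0.29, limma adjusted p = 0.441), and it met the standard without replicate 1 of W_Con (-1.65). With single libraries left out in turn, the value for SLC46A1 ranged from -1.65 to -0.42. HEPH varied least, from 22.3 to 31.6 FPKM in sucking and from 15.6 to 24.2 FPKM in weaned control piglets (log2 fold change -0.46, 95% interval -1.11 to 0.20).

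The library with the highest SLC40A1 and SLC46A1 was also the most proximal by its markers. A distal minus proximal score was formed as the mean log2(FPKM + 1) of 6 distal small intestine genes minus that of 7 proximal ones. It was 0.27, -2.33 and -6.16 in sucking control piglets and -0.41, -0.51 and 0.28 in weaned control piglets. In this comparison all 7 proximal genes had lower and 5 of 6 distal genes had higher fitted means in weaned piglets, with 3 proximal genes and 1 distal gene past the standard. The study had reported FABP6, SLC51A, PYY and ENSSSCG00000026317 (SLC10A2) of the distal genes as raised by weaning on these control libraries. It had reported FABP1 of the proximal genes as lowered. The shift of the score here was thus known beforehand. As a covariate, the score cannot tell sampling position from a change of these genes with weaning. High levels were also found at the distal end of the score. Replicate 3 of W_Res, with a score of -0.01, had the second highest SLC40A1 (10.00 FPKM) and 74.2 FPKM of CYBRD1, and replicate 1 of PW_Res, with a score of 0.46, had the second highest SLC46A1 (18.8 FPKM) and likewise 74.2 FPKM of CYBRD1. Beyond the fit with the score as a covariate, the part of sampling position in these results was not tested.

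**Figure D3:**
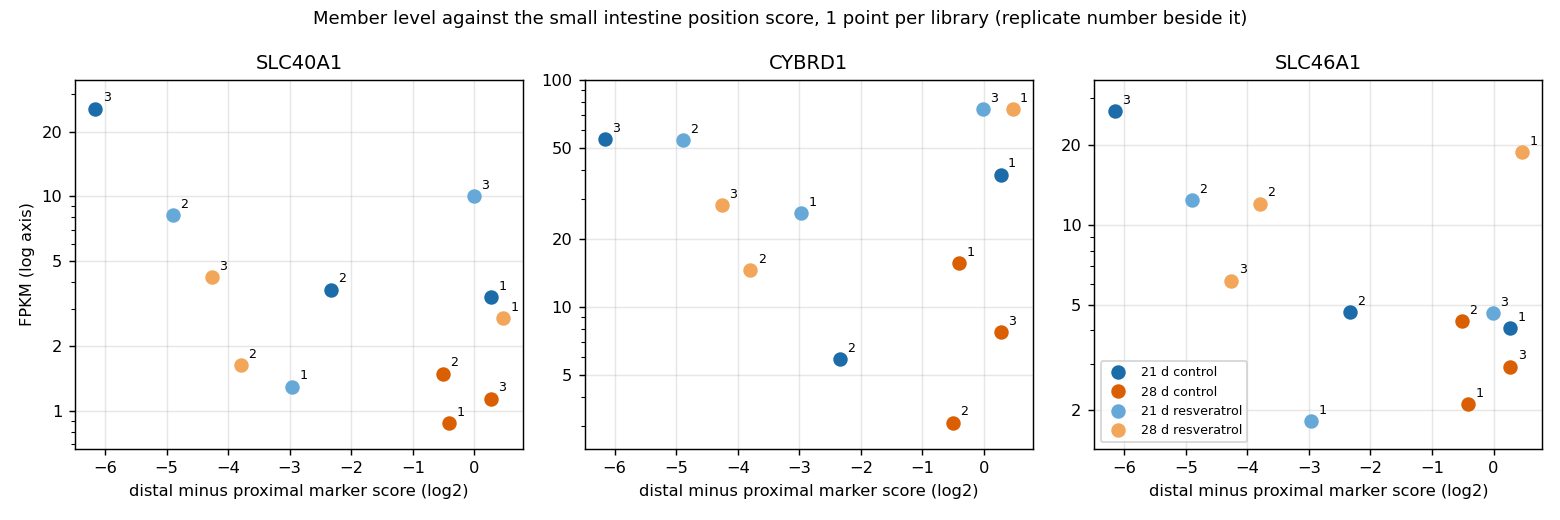
FPKM (log axes) of SLC40A1, CYBRD1 and SLC46A1 against the distal minus proximal score (log2 units), with each library as a point coloured by group and numbered by replicate. Replicate 3 of the sucking control piglets lies at the proximal end (-6.16) with the highest SLC40A1 and SLC46A1, and the 3 weaned control libraries lie together between -0.51 and 0.28.

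In litters of resveratrol-fed sows, none of the 5 genes met the standard between sucking and weaned piglets, and the groups overlapped for each of them. Over all genes, 4.94% met the standard and 21.7% had groups that do not overlap. No gene of the table had an adjusted p under 0.05 in limma or in the Ballgown type model, against 2274 genes with an unadjusted P under 0.05 in limma, none of which was among the 5. The limma count of 0 rested on single libraries, being 110 without replicate 1 and 130 without replicate 3 of W_Res. The study did not choose its genes on these 6 libraries. Smooth muscle markers moved strongly in this comparison, with 4 of 5 genes lower in weaned piglets at the standard (median log2 fold change -2.16), and their part in the results for resveratrol litters was not tested.

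SLC40A1 was at 1.30, 8.18 and 10.00 FPKM in sucking and at 2.71, 1.64 and 4.20 FPKM in weaned resveratrol piglets. The lowest value belonged to a sucking piglet, replicate 1 of W_Res, and the log2 fold change was -0.73 (95% interval -2.25 to 0.79, limma adjusted p = 0.614). It ranged from -1.44 to -0.31 when single libraries were left out (limma adjusted p 0.225 to 0.875). CYBRD1 was at 26.0, 54.5 and 74.2 FPKM in sucking and at 74.2, 14.5 and 28.1 FPKM in weaned piglets, so that each age held a library near the top of the range. Its log2 fold change was -0.58 (95% interval -2.35 to 1.20, adjusted p = 0.750), with a range of -1.18 to -0.05 without single libraries.

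SLC46A1 had the opposite sign to that in control litters. It was at 1.82, 12.4 and 4.65 FPKM in sucking and at 18.8, 12.0 and 6.16 FPKM in weaned resveratrol piglets. Replicate 2 of W_Res lay within the weaned range, and the log2 fold change of 1.04 (95% interval -0.45 to 2.53, limma adjusted p = 0.452) did not meet the standard with it, but did at 1.62 without it. Leaving out single libraries gave 0.50 to 1.62. HEPH was at 19.7, 11.2 and 25.9 FPKM in sucking and 26.8, 16.4 and 25.8 FPKM in weaned piglets (log2 fold change 0.31). TFRC was low at both ages, at 1.85, 1.26 and 0.483 FPKM in sucking and at 1.01, 1.15 and 1.36 FPKM in weaned piglets, and its log2 fold change was 0.03 (95% interval -0.74 to 0.80). The erythroid sum was 80.5 to 135 FPKM in these sucking piglets and 7.28 to 15.8 FPKM in the weaned ones, so that in resveratrol litters the erythroid markers were separated between ages while TFRC was not.

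The difference of the weaning effect between the litters was tested as an interaction term, which shares its libraries with the comparisons above. Of the 5 genes, SLC46A1 and TFRC met the standard, beside 7.76% of all genes tested in either direction and 1.81% in the higher one, and the smallest adjusted p of the 5 was 0.307. In the table, 1770 genes had an unadjusted P under 0.05 for this term, with 0 under an adjusted p of 0.05 in limma and 0 in the Ballgown type model. For SLC46A1 the difference was 2.25 log2 units (standard error 0.96, limma adjusted p = 0.337), made of -1.21 in control and 1.04 in resveratrol litters. The difference for SLC46A1 no longer met the standard when replicate 3 of W_Con (1.46), replicates 1 or 3 of PW_Con, replicates 1 or 3 of W_Res, or replicates 1 or 2 of PW_Res were left out in turn, with the position score as a covariate (1.86) or without the filter on low values (2.25, unadjusted P = 0.0528). For TFRC the difference was 1.28 log2 units (standard error 0.50, adjusted p = 0.307), and it no longer met the standard without replicate 1 of W_Con, replicates 1 or 2 of PW_Con, replicate 3 of W_Res or replicate 3 of PW_Res (0.98 to 1.22). In the Ballgown type model, with all 12 libraries, 0 of the 5 genes had an unadjusted P under 0.05 for this term, with SLC46A1 at 2.31 (unadjusted P = 0.212) and TFRC at 1.55 (unadjusted P = 0.0921), so that both calls were lost. The differences for SLC40A1 (1.19, 95% interval -0.96 to 3.34), CYBRD1 (0.98, -1.53 to 3.49) and HEPH (0.77, -0.16 to 1.70) did not meet it, and that of HEPH did so at 1.02 without replicate 3 of W_Res. Without single libraries, the difference ranged from 0.3429 to 1.6407 for SLC40A1, from 0.3705 to 1.8985 for CYBRD1 and from 0.4524 to 1.0206 for HEPH.

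Markers of position and of other cell types moved for the same term. The 7 proximal genes were all higher (median 1.10), as were SLC46A1 and TFRC, and 1 of them, FABP1, a fatty acid binding protein, met the standard (2.30). Of the 6 distal genes 5 were lower, none at the standard (median -0.74). Of the 10 villus enterocyte genes 6 were higher, and MTTP (2.02) and APOB (1.48), which serve the assembly of lipoproteins, met the standard. Of the 5 smooth muscle genes 4 were lower at the standard (median -2.77), as was 1 of 6 macrophage genes. Beyond the fit with the position score, the part of these markers in the 2 differences was not tested.

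**Figure D4:**
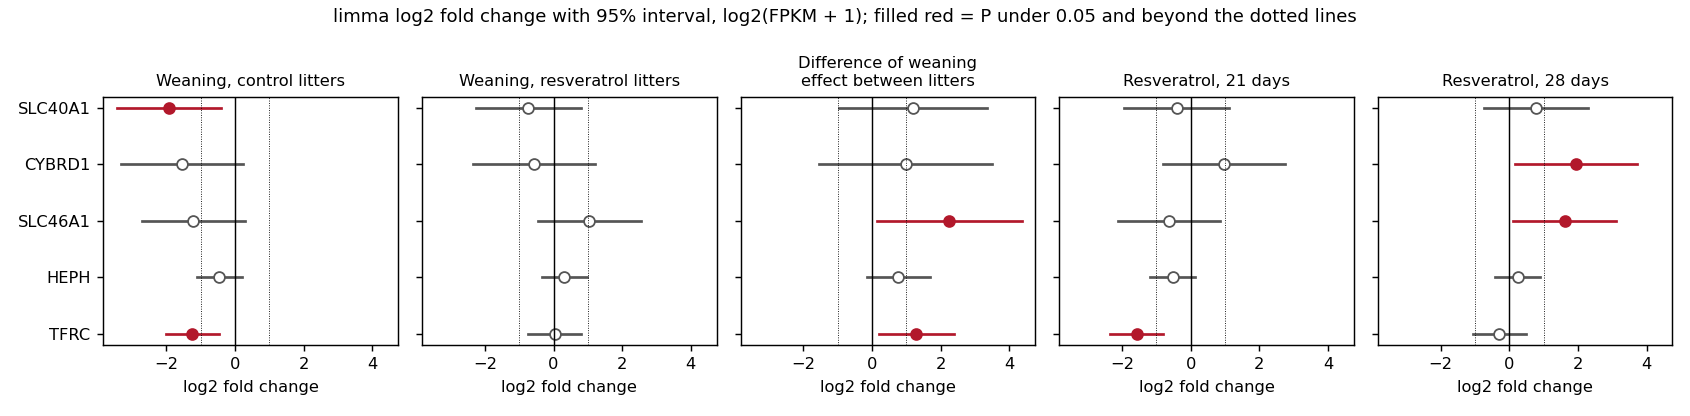
Log2 fold changes of the 5 tested genes on the log2(FPKM + 1) scale with 95% intervals from limma, in the 2 weaning comparisons, their difference and the 2 resveratrol comparisons. Filled red points met the study's standard, which are SLC40A1 (-1.92) and TFRC (-1.25) for weaning in control litters, SLC46A1 (2.25) and TFRC (1.28) for the difference, TFRC (-1.57) for resveratrol at 21 days, and CYBRD1 (1.94) and SLC46A1 (1.61) at 28 days.

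Resveratrol litters were compared with control litters at each age, on the same 12 libraries. In sucking piglets 1 of the 5 genes, TFRC, met the standard, beside 4.77% of all genes in either direction and 1.44% in the lower one. TFRC was at 3.98 to 7.29 FPKM in control and 0.483 to 1.85 FPKM in resveratrol sucking piglets, so that the 3 control libraries were the highest of all 12. It fell by 1.57 on the log2 scale (standard error 0.35, limma adjusted p = 0.103) and ranked 102 of 12886 genes by P, where 6 genes (0.0466%) had an adjusted p under 0.05. That number was 120 without replicate 1 and 109 without replicate 3 of W_Res, and 0 in the Ballgown type model. It met the standard on leaving out any single library (-1.79 to -1.32, adjusted p 0.0584 to 0.285). It was the only one of the 5 genes whose groups did not overlap at this age, as was the case for 21% of all genes.

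The erythroid sum was 31.4 to 74.98 FPKM in control and 80.5 to 135 FPKM in resveratrol sucking piglets, the opposite direction to TFRC. The smooth muscle markers differed in the same comparison, with 4 of 5 genes past the standard and higher in W_Res. In replicates 1, 2 and 3 of W_Res the smooth muscle sum was 1180, 2681 and 542 FPKM, and TFRC was at 1.85, 1.26 and 0.483 FPKM. The villus enterocyte markers summed to 3328 to 4423 FPKM in W_Con and 1239 to 4587 FPKM in W_Res, with 7 of 10 genes lower, 2 of them at the standard (median -0.68). The crypt and cell division markers summed to 470 to 951 and 411 to 1411 FPKM, with 4 of 7 genes lower and none at the standard. The part of these cell types in the result was not tested. Among the other genes, the log2 fold change at 21 days was -0.41 for SLC40A1, 0.97 for CYBRD1, -0.64 for SLC46A1 and -0.52 for HEPH, with adjusted p of 0.372 to 0.791. The sign for SLC40A1 turned without replicate 3 of W_Con (0.44) or replicate 1 of W_Res (0.30), and that for SLC46A1 without replicate 3 of W_Con (0.15). CYBRD1 ranged from 0.05 to 1.55 and HEPH from -0.78 to -0.21 without single libraries.

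In weaned piglets, CYBRD1 and SLC46A1 met the standard with higher levels in resveratrol litters, 2 of 5 genes beside 1.55% of all genes in either direction and 0.652% in the higher one. CYBRD1 was at 14.5 to 74.2 FPKM against 3.09 to 15.6 FPKM in control litters, with replicate 2 of PW_Res just below the highest control library. It rose by 1.94 on the log2 scale (standard error 0.81, limma adjusted p = 0.612). SLC46A1 was at 6.16 to 18.8 FPKM against 2.11 to 4.34 FPKM, with no overlap, and rose by 1.61 (standard error 0.68, adjusted p = 0.616). For SLC40A1 the resveratrol libraries, at 1.64 to 4.20 FPKM, were also all above the control libraries, at 0.879 to 1.50 FPKM, with a log2 fold change of 0.78 (95% interval -0.74 to 2.30) that did not meet the standard. Groups that do not overlap were found for these 2 genes, SLC46A1 and SLC40A1, and for 17.2% of all genes.

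These 2 calls were not stable. In the Ballgown type model neither gene had an unadjusted P under 0.05, with CYBRD1 at 2.11 (unadjusted P = 0.105) and SLC46A1 at 1.63 (unadjusted P = 0.130). Without the filter on low values SLC46A1 was lost as well (unadjusted P = 0.0503) and CYBRD1 was not. In limma the call of CYBRD1 was lost without replicate 2 or 3 of PW_Con or replicate 1 or 3 of PW_Res (1.34 to 2.02), and that of SLC46A1 without replicate 1 or 3 of PW_Con or replicate 1 or 2 of PW_Res (1.26 to 1.59). The position score was 0.46, -3.79 and -4.26 in PW_Res, so that by this score 2 of its libraries were more proximal than all of PW_Con. With the score as a covariate SLC46A1 was at 1.24 (adjusted p = 0.860) and did not meet the standard, whereas CYBRD1 did. The highest values of both genes in PW_Res came from replicate 1, the least proximal of the 3. Lower in PW_Res were 5 of 7 crypt and cell division genes, of which 1, TOP2A (-1.11), met the standard. So were 5 of 6 macrophage genes (median -0.52) and 5 of 5 smooth muscle genes (median -0.45), 0 of them at the standard, while 6 of 10 villus enterocyte genes were higher. The part of these cells in the 2 calls was not tested. HEPH (0.24, or 0.12 to 0.46 without single libraries) and TFRC (-0.29) did not meet the standard. In this comparison 1000 genes had an unadjusted P under 0.05, and limma and the Ballgown type model each gave 0 genes with an adjusted p under 0.05.

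Ordered by mean level, SLC40A1 ran from W_Con (10.9 FPKM) over W_Res (6.49) and PW_Res (2.85) to PW_Con (1.17), and among neighbours in this order only the last 2 groups had separate ranges. The order of TFRC was W_Con (5.46 ± 1.68 FPKM, SD, n = 3), PW_Con (1.89 ± 1.49), W_Res (1.20 ± 0.683) and PW_Res (1.17 ± 0.174), and here only the first 2 were separate. CYBRD1 ran from W_Res (51.6 FPKM) over PW_Res (38.9) and W_Con (32.9) to PW_Con (8.82), SLC46A1 from PW_Res (12.3) over W_Con (11.9) and W_Res (6.28) to PW_Con (3.12), and HEPH from W_Con (26.5) to W_Res (18.9), with every pair of neighbours overlapping. PW_Con was the lowest group for SLC40A1, CYBRD1 and SLC46A1.

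The genes with the most similar pattern were sought among 5326 genes that have a symbol and average 5 FPKM or more, by Pearson's r of log2(FPKM + 1) over the 12 libraries, a description in which group, position and library quality are shared. For CYBRD1 they were SLC39A14 (r = 0.849), a carrier of zinc that also transports non-transferrin-bound iron, SLC44A3 (0.833) and LXN (0.830). For SLC40A1 they were TP53INP2 (0.873), C6orf136 (0.869) and ACADSB (0.864), and for HEPH ACADM (0.901), FAM3C (0.884) and CEMIP2 (0.870). For SLC46A1 they were RAB5C (0.819), GOSR2 (0.805) and PDGFA (0.798), and for TFRC MAP2K4 (0.919), DDX21 (0.919) and CPSF2 (0.911). Among the 5 genes themselves, r was 0.644 between SLC40A1 and SLC46A1, 0.606 between SLC40A1 and CYBRD1, and -0.056 between CYBRD1 and TFRC.

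Lists of 7 kinds of other genes for iron, heme and folate held 86 genes, of which 64 were matched in the table and 56 were tested. Genes that were not matched include HMOX1, HFE and ALAD, so that the counts do not cover whole pathways. In control litters 1 of the 56 met the standard as higher and 1 as lower in weaned piglets, in resveratrol litters 1 and 2, beside the 3.1% and 4.94% of all genes. In limma no adjusted p of these genes was under 0.05 in the 5 comparisons, but 10 had an unadjusted P under 0.05 for weaning in control litters and 9 in resveratrol litters, beside 15.3% and 17.6% of all genes. The median log2 fold change of the lists lay between -0.19 and 0.13 in control litters, where that of all genes was -0.01, and between -0.67 and -0.03 in resveratrol litters, where that of all genes was -0.15.

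Among 9 genes for heme uptake, breakdown and export, ABCG2, an efflux pump that exports heme and porphyrins among many substrates, was at 33.1, 39.5 and 40.5 FPKM in sucking and 17.0, 21.1 and 5.73 FPKM in weaned control piglets. It fell by 1.47 on the log2 scale (limma adjusted p = 0.122) and was at -0.09 in resveratrol litters. BLVRB, a biliverdin reductase, rose by 1.08 in resveratrol litters (adjusted p = 0.253), from 22.7, 10.1 and 7.25 FPKM to 12.7, 35.6 and 39.4 FPKM with overlapping groups, and was at 0.59 in control litters. Among 11 genes for mitochondrial iron and iron-sulfur clusters, ABCB8, a transporter of the inner mitochondrial membrane, was at 10.5, 10.4 and 9.44 FPKM in sucking and 20.9, 19.7 and 25.1 FPKM in weaned control piglets. It rose by 1.04 (adjusted p = 0.111), with no overlap, and was at 0.51 in resveratrol litters.

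Of 6 tested genes for iron transport and binding, SLC39A8, a zinc and iron carrier, fell by 1.21 in resveratrol litters (limma adjusted p = 0.187), in the comparison in which smooth muscle markers also moved, where replicate 3 of W_Res alone had 8.79 FPKM and the other sucking libraries 1.66 and 2.12. SLC39A14 was at 37.7 to 42.0 FPKM in sucking and 21.7 to 34.3 FPKM in weaned control piglets and did not meet the standard (-0.44). Of 6 genes for folate handling, the substrate that SLC46A1 also carries, FOLR2, a folate receptor, fell by 1.41 (adjusted p = 0.125) in resveratrol litters. FOLR2 went from 4.74, 8.02 and 8.47 FPKM to 3.36, 1.36 and 1.52 FPKM there, without overlap. In control litters it had the opposite sign, going from 2.04, 1.98 and 0.574 FPKM to 3.64, 4.24 and 3.48 FPKM, also without overlap, at a log2 fold change of 0.98 that fell short of the standard (unadjusted P = 0.0102, adjusted p = 0.182). The difference between the litters was -2.39 (unadjusted P = 0.000216, adjusted p = 0.251), the lowest P of the 56 genes for that term, and FOLR2 was higher by 1.70 in resveratrol litters at 21 days (adjusted p = 0.0776). For the difference, 5 of 6 macrophage genes (median -0.55) and 5 of 5 smooth muscle genes (median -2.77) were also lower. At 21 days 5 of 5 smooth muscle genes (median 2.21) and 3 of 6 macrophage genes were higher. The part of these cells in the FOLR2 values was not tested. For the difference term 1 of the 56 genes, ABCG2 (1.38), met the standard as higher and 2, FOLR2 and the heme-binding protein HEBP2 (-1.27), as lower, beside 7.76% of all genes, and 5 had an unadjusted P under 0.05, beside 13.7%.

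None of the 8 genes for heme synthesis, the 9 for iron, ferritin and oxygen sensing or the 7 of the hepcidin axis met the standard in either weaning comparison. In control litters 8 of the 9 sensing genes had lower fitted means, and 3 of them had an unadjusted P under 0.05, as did 15.3% of all genes. These were FBXL5, which directs the iron regulatory protein IREB2 to degradation (-0.64, limma adjusted p = 0.125), IREB2 itself (-0.51, adjusted p = 0.317) and EGLN3, an oxygen-sensing prolyl hydroxylase (-0.95, adjusted p = 0.326). In the hepcidin list 3 genes did so, namely ID1, a target of BMP signalling (0.9996, adjusted p = 0.262), BMP6, the ligand that induces hepcidin (0.54, adjusted p = 0.246), and SMAD4, a mediator of that signal (-0.34, adjusted p = 0.318). In resveratrol litters 8 of the 9 sensing genes likewise had lower fitted means, none with an unadjusted P under 0.05, and in the hepcidin list only NEO1 (-0.63, adjusted p = 0.203) did. ACO1, the iron regulatory protein that binds iron-responsive elements in the mRNA of TFRC, SLC40A1 and ferritin, stayed between 30.2 and 49.6 FPKM in the 12 libraries. EPAS1 (HIF-2α), a regulator of CYBRD1 and SLC40A1 in the intestine, was at 17.0 to 36.8 FPKM, with log2 fold changes of -0.09 and -0.08 in the weaning comparisons. HAMP, the gene for hepcidin, which is made mainly in the liver, was at most 0.741 FPKM and was not tested. Between resveratrol and control litters, 2 of the 56 genes were higher and 0 lower at the standard at 21 days, beside 4.77% of all genes, and 0 met it at 28 days, beside 1.55%, as given by limma. An unadjusted P under 0.05 was found for 11 of the 56 at 21 days, beside 18.5% of all genes, and for 3 at 28 days, beside 7.76%.

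**Figure D5:**
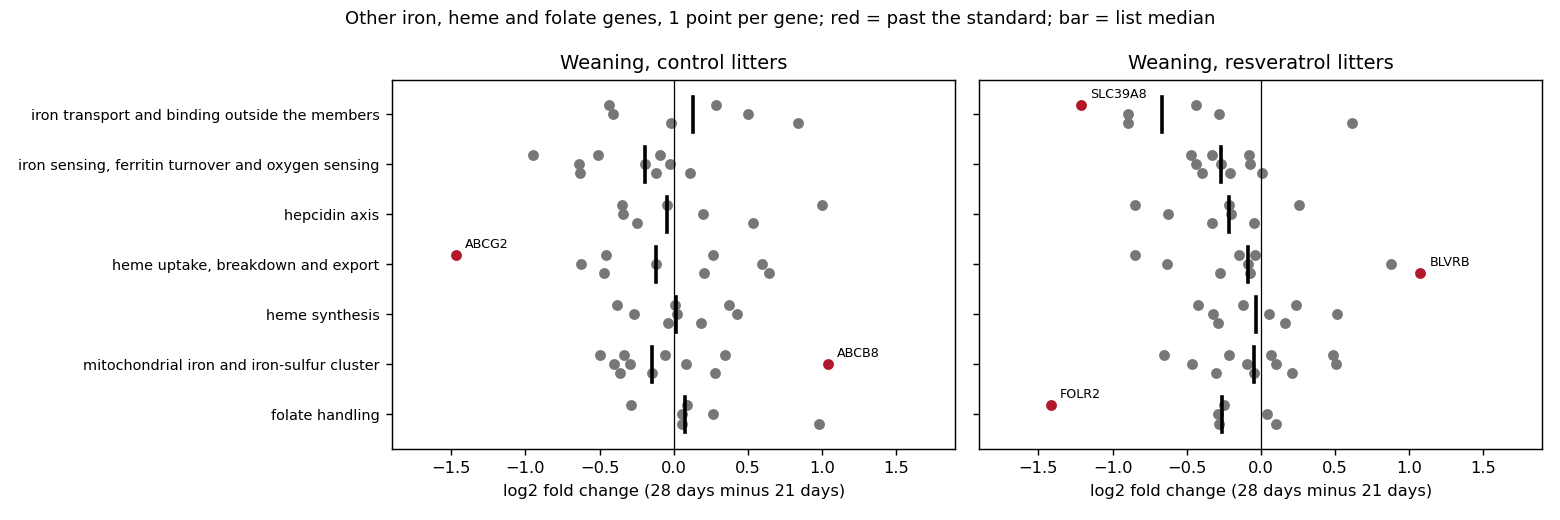
Log2 fold change from 21 to 28 days of each tested gene of 7 lists for iron, heme and folate, in control and in resveratrol litters, with each gene as a point and the list median as a bar. The red points met the study's standard, which are ABCG2 and ABCB8 in control litters and SLC39A8, BLVRB and FOLR2 in resveratrol litters.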

How the data were processed

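The data are RNA-seq libraries of jejunum, sequenced as paired-end reads after poly(A) selection. According to the study's methods, the authors used TopHat for alignment, then StringTie and Ballgown for FPKM. The submitters' processing notes list HISAT2 2.0, Bowtie 0.12.2 and StringTie 1.3.0 with the builds Sscrofa10.2 and mm8, without saying what each was used for. The table deposited by the authors gives FPKM for 41264 loci in 12 libraries. FPKM corrects for gene length and mapped fragments, but not for differences in composition between libraries. Locus merging by the assembler can split a gene, as may hold for SLC40A1. Loci with no gene name, 17650 or 42.8%, were not used.

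From these values, rows with the same gene name were summed, a pseudocount of 1 was added and log2 values were fitted in R 4.3.3 with limma 3.58.1 (lmFit, contrasts.fit and eBayes with a trend). The fit held 4 group means over all 12 libraries, with 8 residual degrees of freedom. Genes with a mean of at least 0.5 FPKM (12886) were tested. The standard of the study's methods combines an unadjusted P under 0.05 with a log2 fold change beyond 1 in either direction. Benjamini-Hochberg adjusted p-values over all genes tested are given beside it. Exact permutation tests were two-sided. The method was tested on simulated data. As alternatives, the filter was dropped or raised to 5 FPKM, the pseudocount was set to 0.1, libraries were scaled by quantile normalization or median-of-ratios, and eBayes was run without a trend. Further alternatives were fits on the 6 libraries of a comparison, a replicate block, a linear model of the Ballgown type, the position score as a covariate and leaving out each library. A sum of 3 neighbouring loci and a fit without replicates 1 and 2 of W_Res were added after seeing the data.

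The genes and lists were chosen with earlier results of these data known. Named were the listed genes, list genes past the standard in a weaning comparison with a mean of at least 1 FPKM, and the 3 genes most similar to each listed gene. ENSSSCG00000014540, ENSSSCG00000003639, ENSSSCG00000016195, ACO1, EPAS1, HAMP, HEBP2, single marker genes and the sensing and hepcidin genes with an unadjusted P under 0.05 are named beside them outside that rule for their roles or values. The villus enterocyte, macrophage and other marker lists are given as sums of FPKM. The macrophage sum was 269 to 340 FPKM in W_Con, 223 to 688 in PW_Con, 331 to 789 in W_Res and 257 to 443 in PW_Res. No sequences or coordinates are given, since the reference used here is of another build. Results for 1 gene of a list are not reported here.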

Additional observations from a re-analysis of the deposited data

Results flagged for a closer look

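For SLC46A1, the difference of the weaning effect between the litters met the study's standard, at 2.25 log2 units (limma adjusted p = 0.337, unadjusted P = 0.0389). For this term 7.76% of all genes met it. The fitted mean of SLC46A1 was lower at 28 days in control litters and higher in resveratrol litters, while libraries of the 2 ages overlapped in both. For TFRC the difference met the standard as well, at 1.28 log2 units (limma adjusted p = 0.307, unadjusted P = 0.0255). Its values were higher in sucking than in weaned piglets in all 3 against 3 control libraries and overlapped in resveratrol litters. Neither has an adjusted p under 0.05, and each lost the study's standard without certain single libraries and, with all 12 libraries, in the Ballgown type model. That of SLC46A1 also lost it with the position score as a covariate and without the filter on low values.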

How the results depend on the processing

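With 3 libraries a group and FPKM in place of counts, the depth behind a gene is unknown, and 3 against 3 libraries limit every exact test to a p of 0.1. No alternative gave any of the 5 genes an adjusted p under 0.05 (lowest 0.0584). Leaving out single libraries kept 266 of 300 values of these genes in direction and on the same side of the standard, and the other settings 280 of 295. Of the 300 values, 22 lost the standard, 5 gained it and 7 changed sign. Many omissions drop a library outside the comparison, which leaves its fold change as it was. Most values also did not meet the standard with all 12 libraries, so that these shares do not measure how stable the calls are. For the values that changed, the cause was not tested. A gene that a filter removed has no value in that setting and is not counted. Over all genes, the number with an adjusted p under 0.05 in limma changed most without single W_Res libraries, reaching 130 in place of 0 for weaning in resveratrol litters and 120 in place of 6 for resveratrol at 21 days, where it was 0 with the replicate block and without replicate 1 or 2 of PW_Res.

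For weaning in control litters, 2 of the genes met the standard, and 1 did at a minimum of 5 FPKM, which removes TFRC, and 1 with the position score as a covariate. Without single libraries it was 1 to 3. Over all genes, 399 became 783 with a pseudocount of 0.1 and 219 at the minimum of 5 FPKM, or 344 to 511 without single libraries. For weaning in resveratrol litters, 0 to 1 of the genes met it without single libraries, and 636 genes of the table became 1237 with the pseudocount of 0.1, 212 at 5 FPKM, 408 after quantile normalization, 234 in the Ballgown type model, 1077 without replicates 1 and 2 of W_Res, and 385 to 1101 without single libraries. HEPH turned to -0.39 in the Ballgown type model and to -0.20 without those 2 replicates, with a range of -0.0054 to 0.56 without single libraries, and TFRC ranged from -0.23 to 0.24.

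For the difference between litters, 2 genes became 1 without a filter, at 5 FPKM, with the position score or without replicates 1 and 2 of W_Res, 0 in the Ballgown type model, and 0 to 2 without single libraries. Over all genes, 1000 became 364 at 5 FPKM, 320 in the Ballgown type model and 633 to 1367 without single libraries. For resveratrol at 21 days, 1 gene became 0 at 5 FPKM, which removes TFRC, and stayed 1 without any single library. Over all genes, 615 became 1185 with the pseudocount of 0.1, 250 at 5 FPKM, 310 in the Ballgown type model, 947 without replicates 1 and 2 of W_Res, and 407 to 1017 without single libraries. SLC40A1 turned to 0.17 in the Ballgown type model and to 0.43 without those 2 replicates. Without single libraries it ranged from -0.86 to 0.44, and SLC46A1 from -1.22 to 0.15. For resveratrol at 28 days, 2 genes became 1 without a filter, 1 with the position score, 0 in the Ballgown type model and 0 to 2 without single libraries, and 200 genes of the table became 456, 112 and 119 with the pseudocount of 0.1, at 5 FPKM and in the Ballgown type model, or 195 to 358 without single libraries. TFRC ranged from -0.60 to 0.097.

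Libraries of the same replicate number did not pair, with r of -0.257 to 0.303 between their deviations over 18 pairs, 5 of them above 0.1, and 4 of 12 libraries correlating best with their own number. According to the study's methods, a sucking and a weaned male were taken from each litter. Control libraries of different ages may therefore be from litter mates, and the sample labels name no litter. With the replicate number as a block, CYBRD1 met the standard for weaning in control litters at -1.55 (limma adjusted p = 0.301), so that 3 of the genes did, and no other call of these genes changed.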
